A study of Rattus norvegicus with 44 samples.

Results

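The genes examined are 7 canonical transcriptional targets of the tumour suppressor p53, namely *Cdkn1a*, *Mdm2*, *Ccng1*, *Gadd45a*, *Phlda3*, *Bax* and *Btg2*. Probe sets were taken when the array's annotation gave exactly 1 gene and that gene was 1 of the 7. This gave 8 of the 31042 probe sets tested and covered 5 of the 7 genes: *Mdm2* had 3 probe sets, *Cdkn1a* had 2, and *Ccng1*, *Gadd45a* and *Phlda3* had 1 each. The annotation gives *Bax* only on a probe set shared with another gene, so no *Bax* value is reported, and *Btg2* was not analysed here.

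The arrays measured total RNA in 2 organs, liver and kidney. The rats were Harlan Sprague-Dawley males, assigned to groups at 6 to 8 weeks of age and given crude MCHM in corn oil by gavage, 5 mL/kg a day for 5 days, and were killed the day after the last dose. Crude MCHM is an industrial liquid used in coal washing whose main component is methylcyclohexanemethanol. The 6 doses were 0.1, 1 and 10 mg/kg, then 100, then 300 and finally 500 mg/kg, and vehicle rats received corn oil alone. Liver had 4 arrays per dose except 3 at 0.1 mg/kg, whereas kidney had 3 arrays for vehicle, for 300 mg/kg and for 500 mg/kg and only 2 per remaining dose, 44 arrays in all.

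p53 is a transcription factor that accumulates when DNA is damaged or cells are otherwise stressed, because its destruction through the ubiquitin ligase Mdm2 is then slowed. It binds pairs of a 10-base consensus unit near its targets and raises transcripts that halt the cell cycle, assist repair or favour cell death, and also raises Mdm2 itself, which closes a negative feedback loop. In liver and kidney these transcripts are commonly read as a sign of genotoxic or cytotoxic stress. *Cdkn1a* encodes p21, an inhibitor of cyclin-dependent kinases; *Gadd45a* encodes a stress protein with roles in growth arrest and repair; *Ccng1* encodes cyclin G1, which acts with Mdm2 in restraining p53; and *Phlda3* encodes a repressor of Akt signalling.

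To show what p53 could meet near the start sites of these genes, the start regions of the members were searched for pairs of the p53 10-base consensus unit. The RefSeq windows of build GRCr8, from 250 bases before to 50 bases after the start site used in that table, were available for 6 of the 7 genes. A match allowed up to 13 bases between the units and at most 1 mismatch over the pair, and since the consensus reads the same on both strands, 1 search covers both. Of all 33469 windows, 335 (1.0%) held a match, and 24 (0.07%) held one with no bases between the units. The windows of *Cdkn1a*, *Ccng1* and *Gadd45a* held a match, and those of *Mdm2*, *Phlda3* and *Btg2* held none of these letters. The 3 windows with a match are shown because 2 of them, of *Cdkn1a* and *Ccng1*, hold a pair with no bases between; the capitals mark the matched units.
Cdkn1a, chr20:7150682-7150981, plus strand: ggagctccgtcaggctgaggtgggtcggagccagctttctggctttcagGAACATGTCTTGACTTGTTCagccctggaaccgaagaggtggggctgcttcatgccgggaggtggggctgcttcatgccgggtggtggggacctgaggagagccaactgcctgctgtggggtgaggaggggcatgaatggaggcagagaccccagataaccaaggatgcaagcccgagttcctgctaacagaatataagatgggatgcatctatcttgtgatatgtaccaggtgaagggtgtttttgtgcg
Ccng1, chr10:25684827-25685126, minus strand: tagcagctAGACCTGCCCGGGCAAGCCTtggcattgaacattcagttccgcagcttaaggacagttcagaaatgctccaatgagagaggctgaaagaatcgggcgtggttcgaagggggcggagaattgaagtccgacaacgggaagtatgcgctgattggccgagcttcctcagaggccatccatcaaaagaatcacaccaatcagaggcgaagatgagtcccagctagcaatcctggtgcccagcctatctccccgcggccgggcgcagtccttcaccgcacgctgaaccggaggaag
Gadd45a, chr4:97486750-97487049, minus strand: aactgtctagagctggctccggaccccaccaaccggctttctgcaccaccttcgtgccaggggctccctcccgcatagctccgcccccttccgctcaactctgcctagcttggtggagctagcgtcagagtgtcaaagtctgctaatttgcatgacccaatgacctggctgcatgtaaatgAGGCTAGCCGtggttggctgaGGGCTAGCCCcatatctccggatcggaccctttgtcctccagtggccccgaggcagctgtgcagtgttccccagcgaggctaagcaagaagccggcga
The pair in *Cdkn1a* lies 201 to 182 bases before the start site and that in *Ccng1* 242 to 223 bases before it. The pair in *Gadd45a* lies 69 to 39 bases before the start site, with 11 bases between the units. The *Cdkn1a* window held 2 matches, and the one with no bases between the units is capitalised. A match describes letters only, and no binding was measured. Sites outside these windows of 300 bases, or with more mismatches, were not searched for, so a window without a match does not mean a gene without a p53 site. The *Mdm2* window, 55200742 to 55201041 on the minus strand, lay inside the annotated gene, which runs from 55176558 to 55201757.

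Values are log2 expression levels summarised by RMA, so a difference of 1 is a 2-fold change, and the probe set with the highest mean in an organ stands for its gene. limma set each dosed group against its organ's vehicle arrays, with adjustment over all 31042 probe sets and a threshold of 0.05 on the adjusted p. Where a dosed group is said not to overlap vehicle, all its arrays lay above, or all below, every vehicle array. With 2 to 4 arrays a group this can arise by chance. The share of all probe sets that do so was not computed, so a lack of overlap is a description only. The lowest median correlation of any array with the others of its organ, 0.9869, was that of kidney 300 mg/kg replicate 2. Markers of hepatocytes averaged a log2 level of 13.79 to 13.81 in vehicle livers and 5.06 to 5.22 in vehicle kidneys, but 8.21 in kidney 1 mg/kg replicate 1. In bulk tissue, a lower level cannot be told apart between fewer cells of a type and less RNA per cell.

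No p53 target gene passed the threshold at any dose in either organ. Of the 30 gene tests of a dose against vehicle in liver, 0 passed, 4 had an unadjusted p under 0.05, and the lowest adjusted p was 0.398. In kidney, 0 of 30 passed, 1 had an unadjusted p under 0.05, and the lowest adjusted p was 0.378. Of all probe sets, 5.04% to 9.83% a dose had an unadjusted limma p under 0.05 in liver, and 3.62% to 10.1% in kidney. Counting all 8 probe sets separately gave 0 of 48 past the threshold in liver and 0 of 48 in kidney. The background was low as well: in liver 0% of all probe sets passed at 0.1, 1, 10 and 100 mg/kg, 0.122% at 300 mg/kg and 0.177% at 500 mg/kg. In kidney 0% passed at every dose. There 1123 to 3131 probe sets a dose had an unadjusted p under 0.05. At 10, 100 and 300 mg/kg that was fewer than this cutoff gives on average by chance. A count of 0 among 5 genes is therefore near the background of these comparisons.

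**Figure D1:**
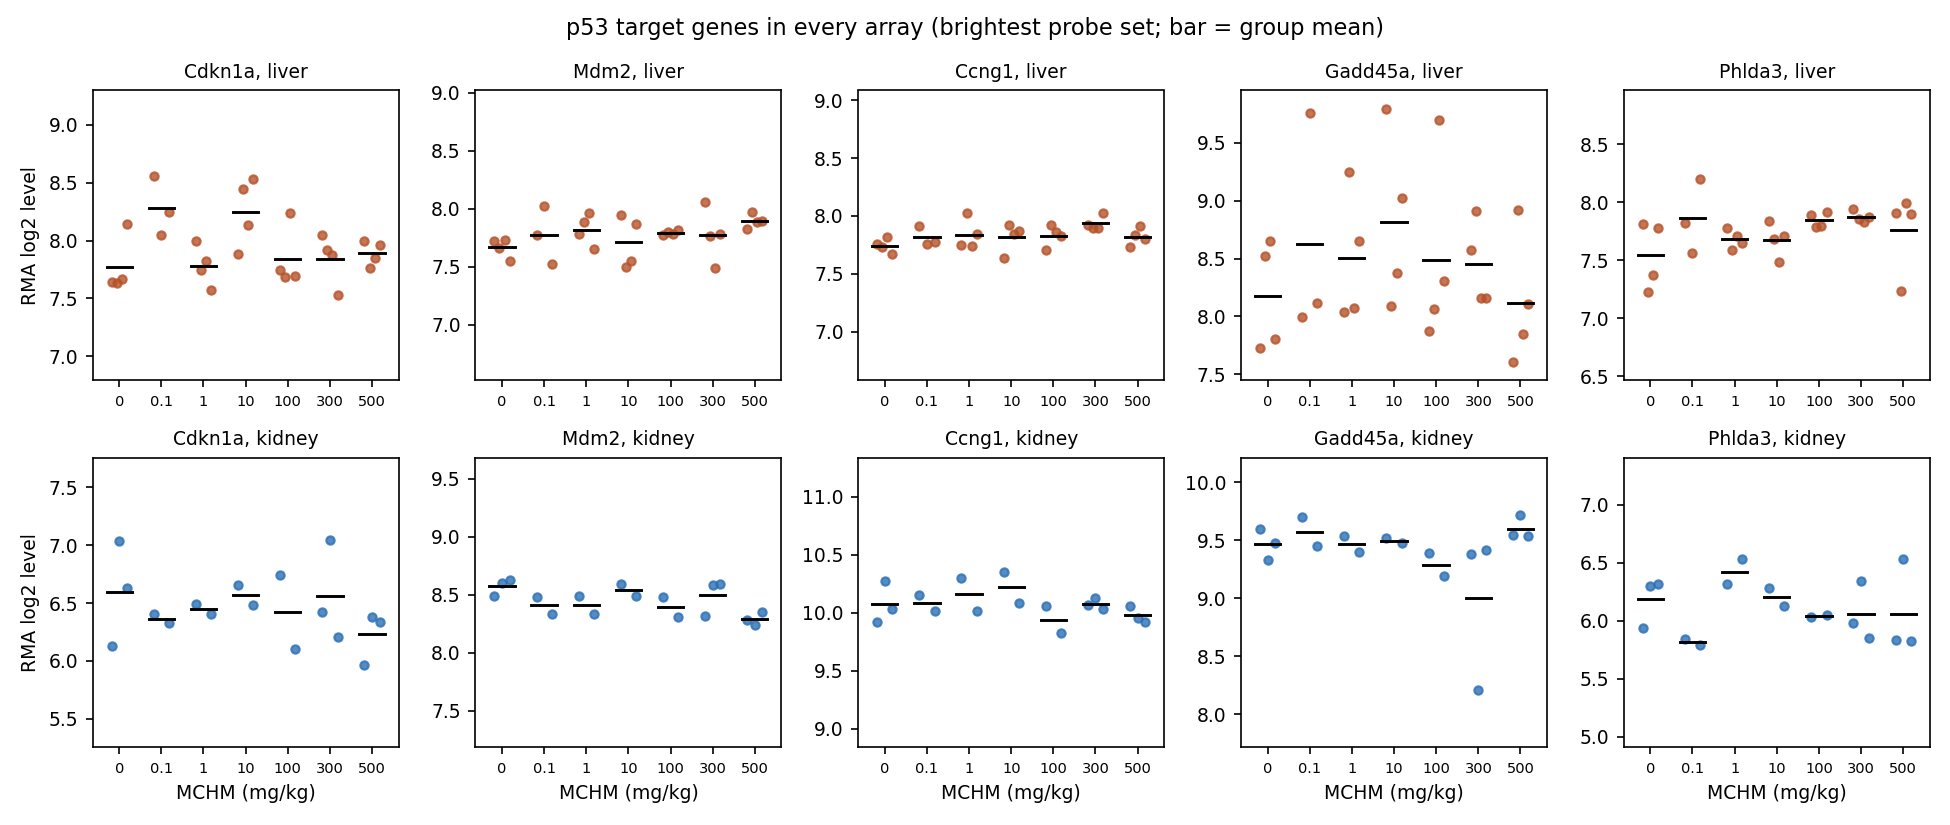
RMA log2 level of the 5 p53 target genes (brightest probe set) in each of 27 liver arrays (top) and 17 kidney arrays (bottom) by dose of MCHM in mg/kg; each point is an array, the bar is the group mean, and every panel spans the same log2 range. *Gadd45a* in liver is the most scattered panel, from 7.61 to 9.79, and *Ccng1* in liver the tightest, from 7.64 to 8.03.

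In liver, *Cdkn1a* was higher at 0.1 and 10 mg/kg than at the other doses, and nearer to vehicle at 100 mg/kg and above. Its levels were 7.64, 7.63, 7.67 and 8.15 in vehicle livers, 8.56, 8.04 and 8.25 at 0.1 mg/kg, 7.99, 7.75, 7.82 and 7.57 at 1 mg/kg, with 7.88, 8.44, 8.13 and 8.53 at 10 mg/kg. At the higher doses they were 7.75, 7.68, 8.24 and 7.69 at 100 mg/kg, 8.05, 7.92, 7.87 and 7.53 at 300 mg/kg, with 8.00, 7.76, 7.85 and 7.96 at 500 mg/kg. The groups overlapped because vehicle replicate 4 lay near the 0.1 and 10 mg/kg arrays. The log2 difference from vehicle was 0.51 at 0.1 mg/kg (SE 0.167, 1.43-fold, 95% interval 1.12 to 1.81) and 0.48 at 10 mg/kg (SE 0.155, 1.39-fold, 1.12 to 1.73). Neither held after adjustment (limma, unadjusted p 0.00515 and 0.00501, adjusted p 0.839 and 0.806). At 1 mg/kg, between those doses, the log2 difference was 0.01, so the values followed no order of dose. At 500 mg/kg *Cdkn1a* stood at 1.09-fold of vehicle, with an interval of 0.872 to 1.36. The second, dimmer *Cdkn1a* probe set gave log2 differences of 0.45 at 0.1 mg/kg and 0.44 at 10 mg/kg, and 0.06 at 500 mg/kg. Against the lower doses (0.1, 1 and 10 mg/kg together), *Cdkn1a* at 300 and 500 mg/kg was lower by a log2 difference of -0.24 (SE 0.102, limma adjusted p 0.343), in a comparison where 0.554% of all probe sets passed.

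*Mdm2*, the ubiquitin ligase that p53 itself induces, averaged lowest in vehicle livers and highest at 500 mg/kg. Its brightest probe set read 7.82, 7.97, 7.89 and 7.89 in 500 mg/kg livers, against 7.72, 7.66, 7.73 and 7.55 in vehicle livers. These groups did not overlap, and the log2 difference was 0.23 (SE 0.114, 1.17-fold, 95% interval 0.993 to 1.38, limma adjusted p 0.582). At 100 mg/kg the values of 7.78, 7.80, 7.78 and 7.82 also lay above every vehicle array, with a log2 difference of 0.12. The 7 dose means spanned 0.23 log2 units, and no neighbours in their order were further apart than 0.07, against a within-dose SD of 0.16. The 3 *Mdm2* probe sets did not give 1 picture. The second read 0.27, 0.15, 0.16, 0.23, 0.21 and 0.16 above vehicle from 0.1 to 500 mg/kg, in log2 units, and none of these passed. The third, the dimmest, was at -0.03, -0.06, -0.08, 0.07, -0.02 and -0.12.

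*Ccng1* had the steadiest level in liver. It averaged 7.82 ± 0.07 at 500 mg/kg and 7.74 ± 0.06 in vehicle livers (SD, n = 4 each), a log2 difference of 0.07 and a fold of 1.05 with a 95% interval of 0.942 to 1.18. At 300 mg/kg its arrays read 7.92, 7.90, 7.89 and 8.03, against 7.76, 7.73, 7.81 and 7.67 in vehicle livers, with no overlap. That difference was 0.19 (SE 0.078, 1.14-fold, 1.02 to 1.28), with a limma unadjusted p of 0.0218 and an adjusted p of 0.398. Its within-dose SD of 0.09 was low: 6.2% of all probe sets varied less between livers of the same dose.

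*Phlda3* likewise had its lowest mean in vehicle livers. At 300 mg/kg it read 7.94, 7.85, 7.83 and 7.88, against 7.81, 7.23, 7.37 and 7.78 in vehicle livers. The groups did not overlap, the dosed arrays were close together and the vehicle arrays fell into a higher and a lower pair. The log2 difference was 0.33 (SE 0.146, 1.26-fold, 95% interval 1.02 to 1.55, limma adjusted p 0.454), and it was 0.22 without vehicle replicate 2. At 500 mg/kg the values were 7.91, 7.23, 7.99 and 7.90, where replicate 2 lay with the lower vehicle arrays. The log2 difference there was 0.21 and was 0.39 without that array (lowest adjusted p over all alternatives 0.306).

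*Gadd45a* varied most from rat to rat. Its liver levels were 7.73, 8.52, 8.65 and 7.80 in vehicle livers, 8.00, 9.76 and 8.12 at 0.1 mg/kg, 8.04, 9.25, 8.07 and 8.65 at 1 mg/kg, with 9.79, 8.09, 8.37 and 9.02 at 10 mg/kg. They were 7.88, 8.06, 9.69 and 8.30 at 100 mg/kg, 8.57, 8.91, 8.16 and 8.16 at 300 mg/kg, with 7.61, 8.92, 7.85 and 8.11 at 500 mg/kg. At 0.1 and at 100 mg/kg a single liver lay over 1 log2 unit above all others of its dose, and every dose group overlapped vehicle. The log2 difference was 0.64 at 10 mg/kg (SE 0.419, 1.56-fold, 95% interval 0.859 to 2.84, limma adjusted p 0.942) and -0.06 at 500 mg/kg (0.962-fold, 0.529 to 1.75). Its within-dose SD of 0.66 exceeded that of 99.7% of probe sets, the median of all being 0.18. The intervals of *Gadd45a* were the widest of the 5 genes in liver, and at 500 mg/kg they include a change of up to 1.75-fold.

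The 6 liver comparisons share the 4 vehicle arrays, and their directions are not independent of one another. Of the 5 genes, 5 lay above vehicle at 0.1, 1, 10, 100 and 300 mg/kg and 4 at 500 mg/kg. The median log2 difference of the 5 genes was 0.32, 0.14, 0.13, 0.12, 0.19 and 0.12 from 0.1 to 500 mg/kg, beside medians over all probe sets between -0.003 and 0.004. The comparison of 300 and 500 mg/kg with 0.1, 1 and 10 mg/kg, which uses no vehicle array, had 3 genes above and 2 below, a median of 0.05 and a lowest limma adjusted p of 0.343. Over the 7 dose levels, 3 slopes were above 0 and 2 below, from -0.017 to 0.033 log2 units per level, with a lowest adjusted p of 0.57, where 0.245% of all probe sets passed.

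**Figure D2:**
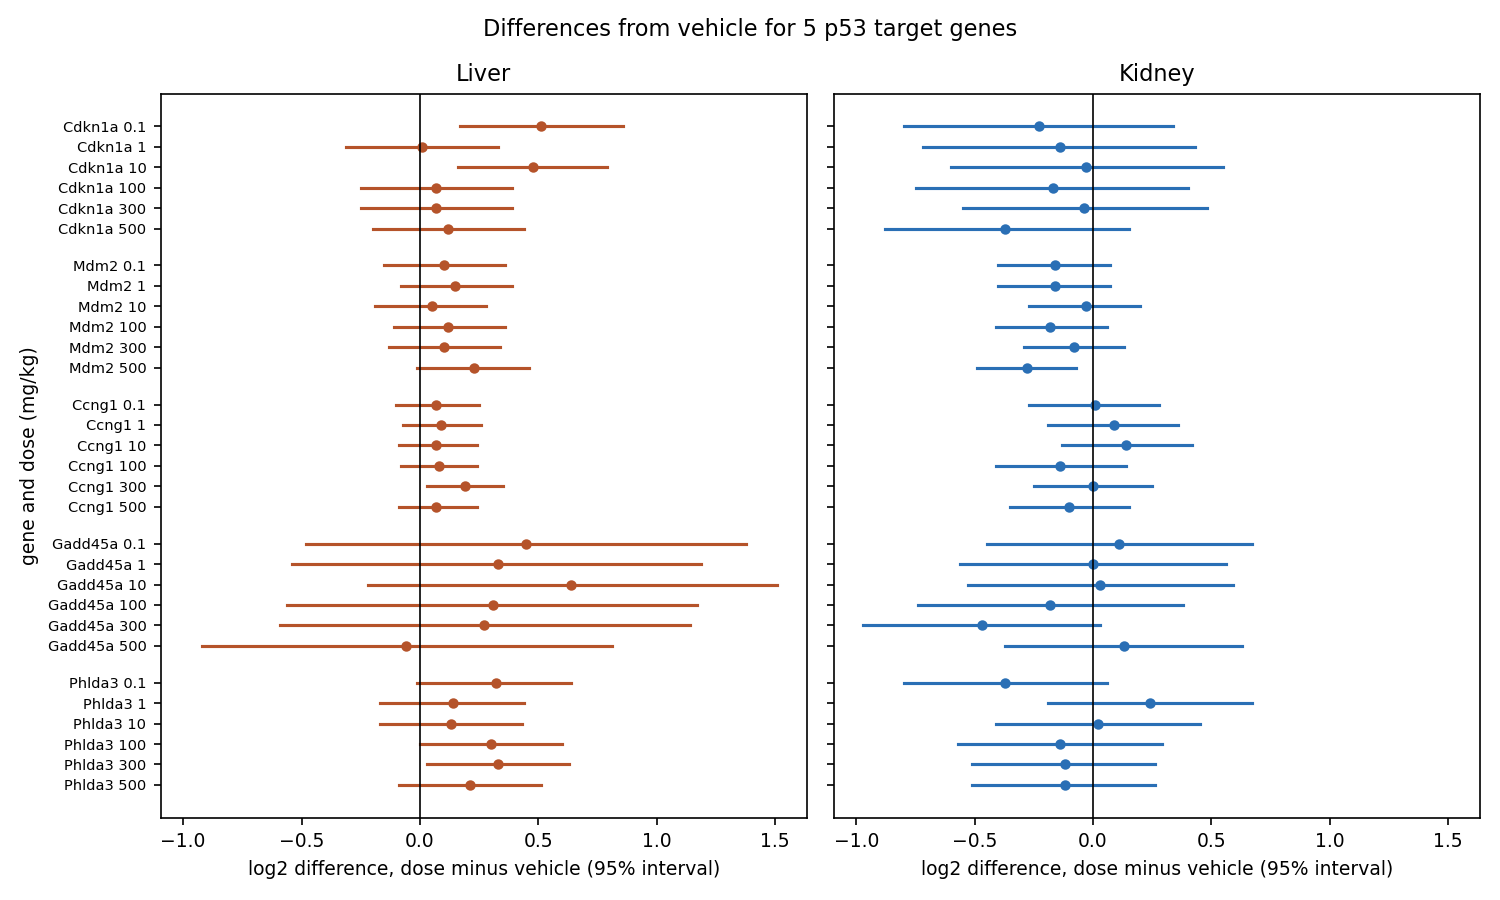
Log2 difference of each dose of MCHM minus vehicle for the 5 p53 target genes in liver (left) and kidney (right); points are limma estimates and lines are 95% intervals, unadjusted. The liver intervals of *Cdkn1a* at 0.1 and 10 mg/kg and of *Ccng1* and *Phlda3* at 300 mg/kg, and the kidney interval of *Mdm2* at 500 mg/kg, lie clear of 0 before adjustment, and *Gadd45a* has the widest intervals in liver.

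In kidney the members lay on both sides of vehicle at the low doses and mostly below it at the high doses. Above vehicle were 2 of 5 genes at 0.1 mg/kg, 2 at 1 mg/kg, 3 at 10 mg/kg, 0 at 100 mg/kg, 1 at 300 mg/kg, where *Ccng1* equalled vehicle to 2 decimals, and 1 at 500 mg/kg. *Mdm2* read 8.28, 8.24 and 8.35 in 500 mg/kg kidneys, against 8.48, 8.60 and 8.63 in vehicle kidneys. The groups did not overlap, and the log2 difference was -0.28 (SE 0.098, 0.822-fold, 95% interval 0.711 to 0.95), with a limma unadjusted p of 0.0116 and an adjusted p of 0.378. The second *Mdm2* probe set was 7.54, 7.42 and 7.63 in 500 mg/kg kidneys and 7.79, 7.86 and 7.71 in vehicle kidneys, also without overlap. The third, dimmest probe set was 6.01, 5.75 and 6.15 at 500 mg/kg and 6.16, 5.97 and 5.63 in vehicle kidneys, with overlap. Beside these values, 0 of 5 endothelial markers and 1 of 6 macrophage markers lay above vehicle at 500 mg/kg, with median log2 differences of -0.28 and -0.30. The endothelial markers averaged 7.18, 7.21 and 7.11 in 500 mg/kg kidneys, against 7.30, 7.56 and 7.58 in vehicle kidneys. The macrophage markers averaged 5.88, 5.91 and 5.60 in 500 mg/kg kidneys, against 5.92, 6.05 and 6.05 in vehicle kidneys. At 300 mg/kg the median endothelial and macrophage levels were 7.21 and 5.83, near the 7.18 and 5.88 at 500 mg/kg. The 3 *Mdm2* probe sets, brightest first, differed from vehicle by -0.08, -0.30 and -0.23 at 300 mg/kg. None of these markers passed the threshold, and their part in the *Mdm2* values was not tested.

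By its brightest probe set, *Cdkn1a* in kidney averaged highest in vehicle and lowest at 500 mg/kg, with wide spread in vehicle. It read 5.96, 6.38 and 6.34 in 500 mg/kg kidneys, against 6.13, 7.03 and 6.63 in vehicle kidneys. The groups overlapped, and the log2 difference was -0.37 (SE 0.24, 0.776-fold, 95% interval 0.543 to 1.11, limma adjusted p 0.639). It was -0.60 without vehicle replicate 1 (adjusted p 0.238) and -0.15 without vehicle replicate 2. The second, dimmer *Cdkn1a* probe set went the other way, with 3.45, 3.48 and 3.94 in 500 mg/kg kidneys, against 3.33, 3.73 and 3.42 in vehicle kidneys, a log2 difference of 0.13 (SE 0.216, adjusted p 0.879). Vehicle replicate 1 also decided how many probe sets of any gene were called: without it 616 passed at 500 mg/kg, none of them a p53 target gene by its brightest probe set.

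*Gadd45a* in kidney was steady except in 1 array. At 300 mg/kg it read 9.38, 8.21 and 9.41, against 9.60, 9.33 and 9.48 in vehicle kidneys, and replicate 2 at 8.21 was the lowest of the 17 kidneys. The log2 difference of -0.47 (SE 0.233, limma adjusted p 0.999) was -0.07 without that array. The same array held the lowest value of the third *Mdm2* probe set, 4.70, against 5.55 or more in the other kidneys. At 500 mg/kg *Gadd45a* was 9.55, 9.72 and 9.54, a log2 difference of 0.13 (1.1-fold, 95% interval 0.775 to 1.55).

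*Ccng1* had kidney differences between -0.14 and 0.14 at the 6 doses, and at 500 mg/kg it was 0.934-fold of vehicle (95% interval 0.787 to 1.11). At 1 mg/kg its log2 difference was 0.09, and -0.06 without replicate 1, the array that carried the hepatocyte markers. *Phlda3* read 5.84 and 5.79 at 0.1 mg/kg, with 6.32 and 6.53 at 1 mg/kg, against 5.94, 6.30 and 6.32 in vehicle kidneys. The log2 differences were -0.37 and 0.24, with limma adjusted p of 0.874 and 0.84, and the 1 mg/kg difference was 0.35 without its replicate 1. At 500 mg/kg *Phlda3* read 5.83, 6.53 and 5.82, and at 300 mg/kg 5.98, 6.35 and 5.85. The 5 adipocyte markers averaged 5.31, 6.36 and 5.09 in the same 500 mg/kg arrays, 5.15, 6.04 and 5.25 in the 300 mg/kg arrays, and 5.01, 5.82 and 6.07 in the vehicle arrays. They averaged 5.10 and 4.97 in the 0.1 mg/kg arrays and 5.49 and 6.64 in the 1 mg/kg arrays, the doses with the largest *Phlda3* differences. In each of these groups the array with most adipocyte signal also had most *Phlda3*. The arrays at 10 and 100 mg/kg were not matched in this way. Their adipocyte averages ran only from 4.98 to 5.11 and from 4.97 to 5.16, and *Phlda3* read 6.29 and 6.12, and 6.03 and 6.05. A group of 2 arrays can readily match by chance. Between groups, more adipocyte signal did not always go with more *Phlda3*. The median adipocyte level was 5.04 at 0.1 mg/kg, 5.04 at 10 mg/kg and 5.06 at 100 mg/kg, where *Phlda3* averaged 5.82, 6.21 and 6.04. The part of such tissue in the *Phlda3* values was not tested.

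The median log2 difference of the 5 genes in kidney was -0.16, 0, 0.02, -0.17, -0.08 and -0.12 from 0.1 to 500 mg/kg, with medians over all probe sets between -0.013 and 0.007. All 5 kidney slopes over dose level were below 0, from -0.031 to -0.013 log2 units per level, with a lowest limma adjusted p of 0.709 and a background of 0%. Comparing 300 and 500 mg/kg with the 3 lowest doses gave 5 genes below, a median of -0.09 and a lowest adjusted p of 0.71, again with 0% of all probe sets past the threshold.

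The difference between the organs was tested directly at the highest doses. At 500 mg/kg the *Mdm2* change in liver exceeded that in kidney by 0.51 log2 units (SE 0.16, 1.42-fold, 95% interval 1.14 to 1.78). Its limma unadjusted p was 0.00308 and its adjusted p 0.198, the lowest of all 90 gene tests, in a comparison where 0.029% of all probe sets passed. Leaving out 1 array at a time gave 0.47 to 0.55, and an adjusted p of 0.0861 without kidney vehicle replicate 1. The other *Mdm2* probe sets differed by 0.41 (adjusted p 0.357) and by -0.17 (adjusted p 0.915). *Cdkn1a* differed by 0.49 (SE 0.278, adjusted p 0.592) and by -0.08 with its second probe set (adjusted p 0.972), *Phlda3* by 0.33, *Ccng1* by 0.17 and *Gadd45a* by -0.19. At 300 mg/kg 0 of 5 genes passed, with a background of 0% and differences from 0.11 for *Cdkn1a* to 0.74 for *Gadd45a* (lowest adjusted p 0.812).

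Vehicle means of the 2 organs were further apart than dose means within an organ for each of the 5 genes. Vehicle livers and vehicle kidneys averaged 7.77 and 6.60 for *Cdkn1a*, and 7.55 and 6.18 for *Phlda3*, both higher in liver. They averaged 7.67 and 8.57 for *Mdm2*, 7.74 and 10.07 for *Ccng1*, and 8.18 and 9.47 for *Gadd45a*, all lower in liver. Over all doses the 27 livers and 17 kidneys did not overlap for *Cdkn1a*, *Mdm2*, *Ccng1* or *Phlda3* by the brightest probe sets, whereas *Gadd45a* ran from 7.61 to 9.79 in liver and from 8.21 to 9.72 in kidney. The other *Mdm2* probe sets overlapped between the organs, and the third averaged 6.24 in vehicle livers and 5.92 in vehicle kidneys, higher in liver. These levels were not tested, and the sources used here do not say whether the organs were normalised together.

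Whether the p53 targets varied together among rats of 1 dose was asked with deviations from the dose means. Of the 20 gene pairs in both organs, 0 passed adjustment by a permutation test with 100000 shuffles within dose groups, two-sided. In liver the highest correlation was that of *Mdm2* with *Gadd45a*, with Pearson's r 0.53 and Spearman's rho 0.53 over 27 arrays (permutation p 0.0169 and 0.016, adjusted 0.165 and 0.263). Without the 2 arrays farthest from the median of the *Mdm2* deviations, r was 0.57. In every pair these 2 arrays were chosen by the gene named first, so arrays extreme for the other gene could remain. *Gadd45a* and *Phlda3* had r -0.49 and rho -0.40 (permutation p 0.025 and 0.0783, adjusted 0.165 and 0.263), and r -0.44 without 2 arrays. The median over the 10 liver pairs was -0.13, with 3 above 0. In kidney, *Cdkn1a* and *Phlda3* had r 0.62 and rho 0.59 over 17 arrays (permutation p 0.033 and 0.0788, adjusted 0.165 and 0.263), and r 0.45 without 2 arrays. *Cdkn1a* and *Ccng1* had r 0.60 and rho 0.58 (permutation p 0.0311 and 0.0323, adjusted 0.165 and 0.263), and r 0.55 without 2 arrays. *Cdkn1a* and *Gadd45a* had r -0.55 and rho -0.37 (permutation p 0.166 and 0.29, adjusted 0.546 and 0.515), and r -0.29 without 2 arrays. The median over the 10 kidney pairs was 0.10, with 6 above 0.

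The gene whose liver deviations were most like those of *Gadd45a* was *Jun*, a subunit of the AP-1 transcription factor, with r 0.87 over the 27 arrays, followed by *Peli1* at 0.85 and *Hps3* at 0.84. The 3 *Jun* probe sets had r of 0.86 to 0.87. The most alike of them read 6.82, 8.78 and 7.52 at 0.1 mg/kg, with 6.58, 6.90, 8.39 and 7.69 at 100 mg/kg, where *Gadd45a* read 8.00, 9.76 and 8.12, and 7.88, 8.06, 9.69 and 8.30. The liver highest for *Gadd45a* within these doses was also the highest for *Jun*. For the other members the most alike liver genes were *Nle1* for *Cdkn1a* (r 0.79), *Nsmce1* for *Mdm2* (0.80), *Naa15* for *Ccng1* (0.67) and *Etv6* for *Phlda3* (0.80). In kidney, over 17 arrays, they were *Guca2a* for *Cdkn1a* (0.93), *Rhpn1* for *Mdm2* (0.95), *Ap2a2* for *Ccng1* (0.94), *Eif2ak1* for *Gadd45a* (0.98) and *Lcp1* for *Phlda3* (0.93). The kidney deviations of *Gadd45a* are dominated by 300 mg/kg replicate 2, at 8.21. The most alike genes were picked from all brighter named genes for their likeness and are given as a description. No other p53 target examined was among the 3 most alike genes of any member in either organ. With 3 picked from so many genes, that absence cannot show whether members vary with other p53 targets.

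**Figure D3:**
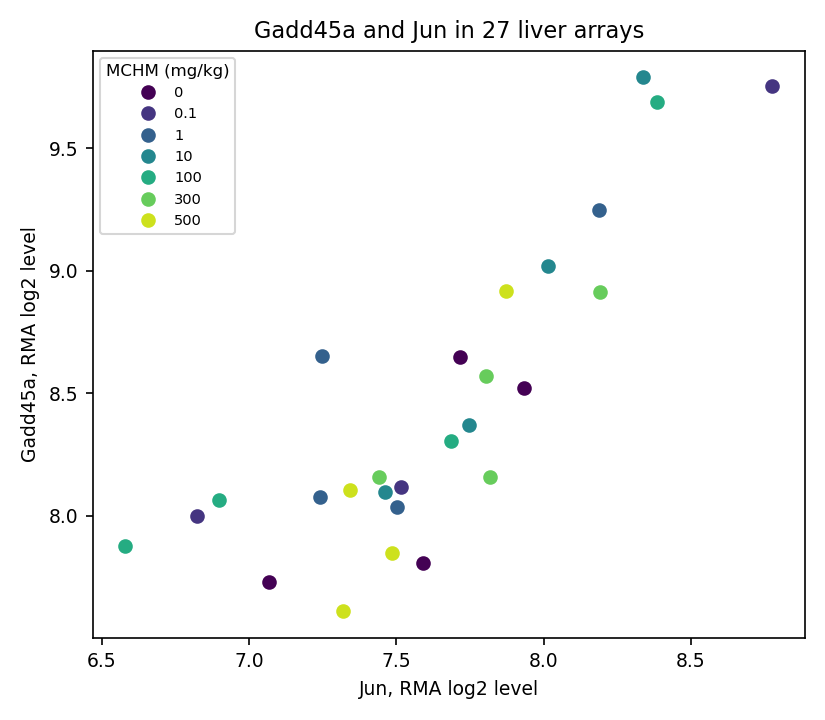
RMA log2 level of *Gadd45a* against that of *Jun* (its most alike probe set) in each of 27 liver arrays, coloured by dose of MCHM in mg/kg. Livers high for *Gadd45a*, up to 9.79, are also high for *Jun*, and they come from several doses.

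The wider p53 programme was read from 47 measured genes of a list of 56 further p53 targets. In liver 0 passed at any dose against vehicle, the list medians lay between 0 and 0.05 in log2 units, and the lowest limma adjusted p was 0.209. Between 300 and 500 mg/kg and the 0.1, 1 and 10 mg/kg livers, 0 of the 47 passed as well, with a lowest limma adjusted p of 0.068. There 9 of the 47 had an unadjusted p under 0.05, beside 12.1% of all probe sets, and 18 lay higher at the high doses (median -0.02). The 2 smallest p at 0.1 and at 10 mg/kg included *Aen*, an exonuclease that p53 induces during apoptosis. It read 6.96, 7.31 and 6.93 at 0.1 mg/kg, with 7.01, 7.19, 7.21 and 7.08 at 10 mg/kg, against 6.58, 6.61, 6.71 and 6.74 in vehicle livers. *Aen* at 1 mg/kg, at 6.88, 6.84, 6.92 and 6.86, lay above every vehicle liver as well. At 0.1 and 10 mg/kg *Cdkn1a* was also highest, but at 1 mg/kg *Cdkn1a* was near vehicle. The log2 difference of *Aen* was 0.41 at 0.1 mg/kg (SE 0.107, adjusted p 0.593), 0.22 at 1 mg/kg (SE 0.099, adjusted p 0.985) and 0.46 at 10 mg/kg (SE 0.099, unadjusted p 7.93e-05, adjusted p 0.567). From 100 to 500 mg/kg it was 0.23, 0.17 and 0.09. At 500 mg/kg *Aen* was 6.81, 6.74, 6.55 and 6.88, overlapping vehicle. *Tp53inp1*, whose product promotes p53 activity, differed by 0.46 at 300 mg/kg (SE 0.138, adjusted p 0.209) and *Steap3*, an endosomal iron reductase, by -0.35 (SE 0.135, adjusted p 0.365). *Ddb2*, which recognises ultraviolet damage in DNA, differed by 0.24 at 500 mg/kg (SE 0.097, adjusted p 0.438).

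In kidney 0 of the 47 passed at any dose, the medians lay between -0.05 and 0.02, and the lowest limma adjusted p was 0.326. That belonged to *Gdf15*, a secreted stress cytokine, at 500 mg/kg. *Gdf15* read 6.68, 6.37 and 6.46 in 500 mg/kg kidneys, against 7.18, 7.92 and 8.35 in vehicle kidneys. The groups did not overlap, the vehicle arrays were spread over more than 1 log2 unit, and the difference was -1.31 (SE 0.245, unadjusted p 1e-04). From 0.1 to 300 mg/kg it was -0.49, -0.87, -0.30, -1.12 and -0.87, each with an adjusted p of 0.672 or more. *Apaf1*, the core of the apoptosome, differed by -0.42 at 500 mg/kg (SE 0.127, adjusted p 0.363).

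**Figure D4:**
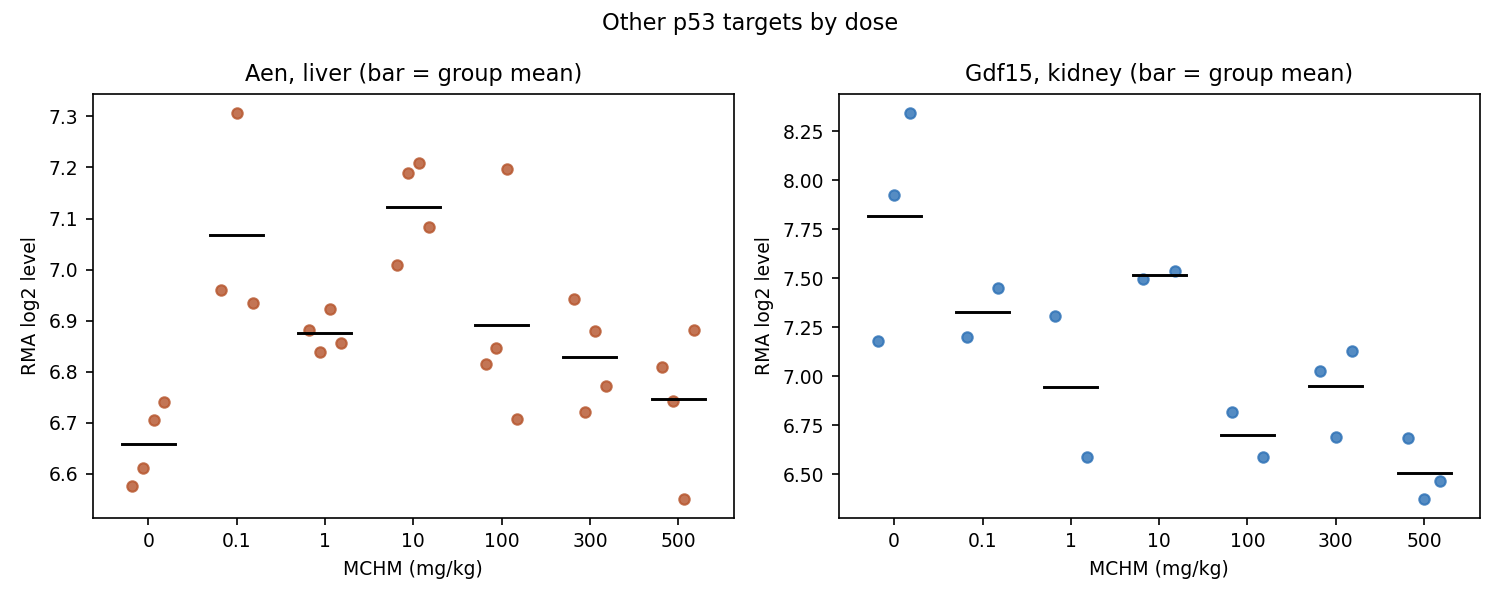
RMA log2 level of *Aen* in each liver array (left) and of *Gdf15* in each kidney array (right) by dose of MCHM in mg/kg; points are arrays and bars are group means. *Aen* is highest at 0.1 and 10 mg/kg, with means of 7.07 and 7.12, and *Gdf15* averages 6.51 at 500 mg/kg and 7.82 in vehicle kidneys; neither gene passed the threshold.

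Of 20 regulators of p53, 17 were measured and 0 passed at any dose in liver (medians 0.03 to 0.07, lowest limma adjusted p 0.408) or kidney (medians -0.01 to 0.06, lowest adjusted p 0.36). *Mdm4*, the partner of Mdm2 that restrains p53 as a transcription factor, read 6.29, 6.52 and 6.47 in 500 mg/kg kidneys, against 6.24, 5.68 and 5.72 in vehicle kidneys. The groups did not overlap, and the difference was 0.55 (SE 0.143, adjusted p 0.36), beside -0.28 for *Mdm2*. From 0.1 to 300 mg/kg *Mdm4* differed by 0.67, 0.53, 0.20, 0.20 and 0.37 from the same vehicle arrays, of which replicate 1 was the highest. *Crebbp*, an acetyltransferase that acts on p53, was lower at 300 and 500 mg/kg than at the low doses in liver by a log2 difference of -0.22 (SE 0.059, adjusted p 0.0879).

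**Figure D5:**
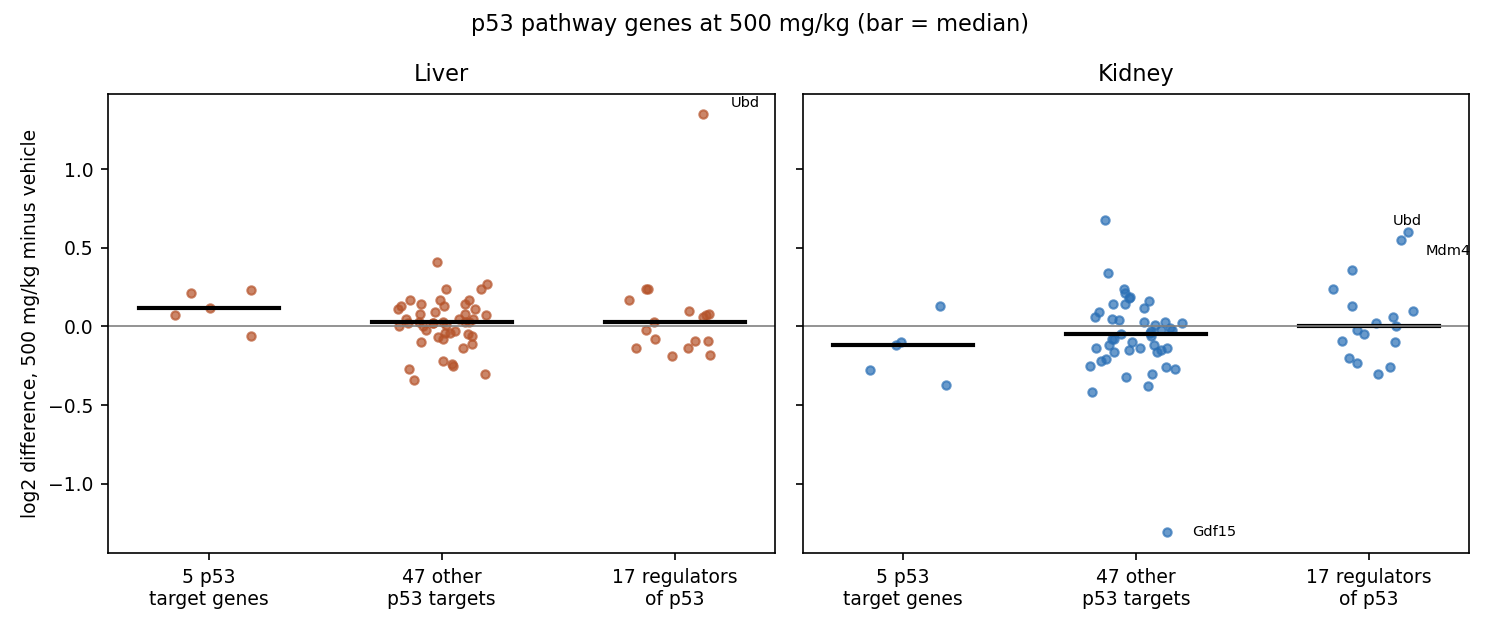
Log2 difference of 500 mg/kg minus vehicle in liver (left) and kidney (right) for the 5 p53 target genes, 47 other p53 targets and 17 regulators of p53; each point is a gene and the bar is the list median. The medians of the 5 genes are 0.12 in liver and -0.12 in kidney, *Gdf15* at -1.31 is the lowest point in kidney, and *Ubd* in liver, named after its value was seen, is at 1.35 with an SE of 1.04 and an adjusted p of 0.769; no point passed the threshold.

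Transcripts that often move with p53 targets were read alongside them. Of 18 proliferation genes, 0 passed at any dose in liver or kidney (lowest limma adjusted p 0.464 and 0.364), and 0 of 17 immediate early genes, the group that holds *Jun*, passed (0.333 and 0.396). The proliferation medians lay between -0.30 and -0.01 in liver and between -0.25 and 0.05 in kidney. In liver 0, 8, 3, 1, 2 and 3 of the 18 lay above vehicle from 0.1 to 500 mg/kg, in comparisons that share the vehicle arrays. In kidney 2, 4, 12 and 10 of the 18 did so from 0.1 to 100 mg/kg. Of 16 genes of the ATF4 stress response, 0 passed. Their liver medians were 0.32, 0.07, 0.45, 0.43, 0.50 and 0.14 from 0.1 to 500 mg/kg, in no order of dose and against the same vehicle arrays. At 0.1, 10 and 300 mg/kg 14 of the 16 lay above vehicle, and the lowest limma adjusted p was 0.0738 at 300 mg/kg. Of 12 glucocorticoid and fasting genes, 0 passed against vehicle in either organ (0.179 and 0.392). *Foxo3*, a transcription factor of the fasting response, fell at 300 and 500 mg/kg relative to 0.1, 1 and 10 mg/kg in liver, with a log2 difference of -0.39 (SE 0.077, adjusted p 0.0181).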

How the data were processed

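The values, as deposited by the authors, are log2 levels from a 3' Affymetrix rat array, made with RMA per the submitters' processing notes; its version is not given in the sources. Quantile steps in RMA hide a shift of most transcripts in 1 direction. Per the series' design text, the authors had dropped arrays with batch effects; batch was not tested here. Arrays of a group are biological replicates per the labels. Of 31099 probe sets, 57 controls were left out.

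limma 3.58.1 in R 4.3.3 fitted the 7 dose groups of each organ together (lmFit, eBayes; two-sided; Benjamini-Hochberg over 31042 probe sets), and all 44 arrays with no animal block for the organ difference. Scripts were tested on simulated data. The alternatives were another probe set filter, quantile step, variance prior, dose coding, the mean of a gene's probe sets, fits of 2 groups, a replicate block and leaving out each array. Members, gene lists and rules were chosen with earlier results of these data known. Other genes are named when past the threshold or among the 2 smallest p of their list, and the 3 most alike genes by Pearson's r. Symbols were updated through RefSeq GRCr8, in which 20758 probe sets matched. The number of arrays limits the precision.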

Additional observations from a re-analysis of the deposited data

Results flagged for a closer look

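In 5 of 48 groups of 4 liver arrays, 1 array lay apart from the other 3 by Dixon's gap criterion, which chance meets in about 1 of 20 groups. *Cdkn1a* was 8.15 in vehicle replicate 4, with the other vehicle livers at 7.63 to 7.67. At 100 mg/kg, replicate 3 was high for both *Cdkn1a* probe sets, at 8.24 (others 7.68 to 7.75) and 6.04 (others 5.28 to 5.41). The second *Mdm2* probe set was 7.68 in 300 mg/kg replicate 1, with the others at 7.47 to 7.50. *Phlda3* was 7.23 in 500 mg/kg replicate 2, with the others at 7.90 to 7.99.

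In 4 of 20 gene and dose pairs, every dosed liver lay above the vehicle mean and every dosed kidney below it. The liver change minus the kidney change was 0.74 for *Cdkn1a* at 0.1 mg/kg, 0.68 for *Phlda3* at 0.1 mg/kg, 0.44 for *Phlda3* at 100 mg/kg and 0.30 for *Mdm2* at 100 mg/kg. These differences between organs were not tested, and each kidney group here had 2 arrays. The 4 pairs share the vehicle arrays of each organ. How many of all probe sets meet the same rule was not computed, so the count is not a result about p53 targets.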

How the results depend on the processing

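The count of p53 target genes past the threshold was 0 in all 182 limma refits that left out 1 array and in all 104 refits under the other alternatives. Among 910 gene values with 1 array left out, 48 changed sign, and the lowest adjusted p was 0.0861; among 520 values under the other alternatives, 11 changed sign and the lowest adjusted p was 0.111. The values that moved by 1 SE or more with a change of sign were *Mdm2* at -0.02 and *Gadd45a* at -0.12 in liver at 0.1 mg/kg without replicate 2 of that dose, *Ccng1* in kidney at 1 mg/kg (-0.06 without replicate 1) and *Cdkn1a* in kidney at 100 mg/kg (0.14 without replicate 2).

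The count over all probe sets moved more. In liver it was 38 at 300 mg/kg and 55 at 500 mg/kg. It was 0 to 22 and 9 to 84 with 1 array left out, 139 and 104 over the brighter probe sets only, 16 and 51 with a second quantile step, 84 and 116 with an intensity trend in the prior, and 2 and 1 when only the 2 groups were fitted. For 300 and 500 mg/kg against the low doses it was 172, and 66 to 171 with 1 array left out, 456 over the brighter probe sets and 360 with the intensity trend. For the slope it was 76, and 12 to 91, 211 and 163 under the same settings and 36 on log10 dose. In kidney it was 0, but 319, 201, 138, 23, 103 and 616 from 0.1 to 500 mg/kg without vehicle replicate 1. For the organ difference at 500 mg/kg it was 9, and 0 without kidney vehicle replicate 2 but 746 without kidney vehicle replicate 1.

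The labels do not say that a replicate number marks a shared batch or animal. Deviations of same-numbered arrays had a median correlation of 0.02 in liver (-0.14 to 0.23) and 0.05 in kidney (-0.35 to 0.36), beside -0.01 and -0.05 for arrays of other numbers. Of the arrays, 16 of 27 in liver and 7 of 16 numbered ones in kidney correlated best with their own number. The number expected by chance was not computed. It is not small in kidney, where each dose had only 2 or 3 arrays. The share expected by chance is smaller in liver, where each dose had 4 arrays except 3 at 0.1 mg/kg. The main fits held no block for the replicate number. Any hint here comes from the data and not from the design. With the replicate number as a block, the count of p53 target genes past the threshold was 0 in every comparison, and the count over all probe sets was 60 at 300 mg/kg and 42 at 500 mg/kg in liver.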
